A study of Mus musculus with 6 samples.

Results

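The 42 genes described here are interferon-stimulated antiviral genes, taken as the rows whose gene symbol was on a list of known members of this programme. The list was chosen with earlier results of these data known. All 42 were found, each in a single row, among 46329 gene symbols in the deposited tables, and 39 of them passed the filter on low values and were among the 15777 genes tested. Mx1, Mx2 and Ifi44 did not pass it. The genes were ordered by role into the Ifit, Oas, Mx, Parp9/Parp14/Dtx3l and Stat/Irf groups, and the remaining members into ISG15 and its conjugation, sensors of RNA and DNA, enzymes acting on viral RNA and nucleotides, and other effectors. Their transcripts were measured in flow-sorted neutrophils of the bone marrow of male wild-type (WT) mice. There were 3 Control libraries, and 3 libraries of mice under chronic unpredictable mild stress (CUMS) for 4 weeks, a schedule of changing environmental stressors used as a model of depression. No allele, transgene or drug is named for either group in the sources used here. The sources used here do not give strain, age, sorting gate, strandedness of the kit or whether libraries came from separate animals, so the p-values measure only the spread between these samples, which may be technical.

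As background, type I interferons bind the receptor pair Ifnar1 and Ifnar2, whose kinases Jak1 and Tyk2 activate transcription factors, Stat2 among them. Together with Irf9, Stat2 takes part in a complex that binds the interferon-stimulated response element (ISRE) in promoters and switches on genes whose products detect viral RNA, block its translation, degrade it or tag proteins with the ubiquitin-like modifier Isg15. Neutrophils in the marrow carry a basal level of this programme, and interferon raises it.

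The promoter stretches below were chosen because they belong to genes on which the results turn, and because they hold the core of the ISRE as a script found it. The motif searched was GAAANNGAAA on either strand (TTTCNNTTTC when read from the other strand), where overlapping matches were all kept. Capitals mark the matches. Each stretch is 80 bases read 5′ to 3′ in the direction of the gene from the RefSeq promoter table on GRCm38.p6. Those of Ifit3 (chr19:34583359-34583438, plus strand) and its copy Ifit3b (chr19:34607755-34607834, plus strand) are identical over all 80 bases. Ifit1 (chr19:34640739-34640818, plus strand) holds a pair of matches closer to its start. Rsad2 (chr12:26456533-26456612, minus strand) has a single match, and Ddx60 (chr8:61928007-61928086, plus strand) has a pair. Oas1a (chr5:120907526-120907605, minus strand), Oas1g (chr5:120887614-120887693, minus strand) and Isg15 (chr4:156200849-156200928, minus strand) are shown beside them because they hold overlapping matches and did not pass the test.
Ifit3: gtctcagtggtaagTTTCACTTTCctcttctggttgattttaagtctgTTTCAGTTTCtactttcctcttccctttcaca
Ifit3b: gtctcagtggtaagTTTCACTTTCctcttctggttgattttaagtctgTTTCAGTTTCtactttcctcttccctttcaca
Ifit1: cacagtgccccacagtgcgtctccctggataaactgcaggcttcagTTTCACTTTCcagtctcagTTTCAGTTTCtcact
Rsad2: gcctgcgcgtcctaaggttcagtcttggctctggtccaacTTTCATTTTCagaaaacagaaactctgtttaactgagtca
Ddx60: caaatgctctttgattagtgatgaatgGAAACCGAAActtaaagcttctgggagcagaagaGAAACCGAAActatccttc
Oas1a: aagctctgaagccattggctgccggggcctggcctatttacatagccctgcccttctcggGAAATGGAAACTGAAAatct
Oas1g: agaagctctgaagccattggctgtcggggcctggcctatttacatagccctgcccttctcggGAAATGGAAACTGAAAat
Isg15: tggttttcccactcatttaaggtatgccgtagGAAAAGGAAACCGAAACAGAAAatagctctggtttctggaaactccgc

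A promoter window, from 250 bases before to 50 bases after the start, was found for 32 of the 42 members. The ISRE core was present in 14 of these 32 (43.8%), against 3.44% of all 32851 windows in the table and 3.86% of the tested genes that had a window. As the list holds known interferon-stimulated genes, this excess follows from the list and says nothing of CUMS. The ISRE core was present in 5 of 8 members that rose in CUMS (62.5%) and in 9 of 23 members that were tested and did not pass (39.1%). Among the 273 genes outside the list that rose in CUMS and had a window, 7.69% held it. In Ifit3 the matches began 156 and 122 bases before the start, in Ifit3b 188 and 154, in Ifit1 104 and 85, in Ddx60 53 and 19, and in Rsad2 120. Those of Isg15 began 78, 72 and 66 bases before it. A second motif, TTCNNNGAA (the gamma-activated sequence, on either strand), was present in 8 of 32 members (25%), where any window of a gene counted. It was present in 8.3% of all single windows. As some members had several windows, these shares are in unlike units. A match describes letters in the window, and no match was read as absence of a binding factor. Oasl2, Dtx3l and Xaf1 rose in CUMS and had no ISRE core in this window. Parp9, Parp14, Zbp1 and Ifi27l2a rose as well but had no window, so they are not among the 8. The copies Ifit3 and Ifit3b count separately among the 5 with the ISRE core, and Oas1a and Oas1g among the 9.

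Of the 39 members tested, 12 rose in CUMS and 0 fell (edgeR's quasi-likelihood F test, Benjamini-Hochberg adjustment over all 15777 genes, threshold 0.05). The test called 2.36% of all genes higher and 2.14% lower. Because the list was chosen with earlier results of these data known, shares among the members are not independent of the data. At an unadjusted p under 0.05, 21 members were higher and 1 was lower, and DESeq2 called 0 members lower. The 12 were Ifit3, Ifit3b, Ifit1, Rsad2, Dtx3l, Parp9, Parp14, Oasl2, Ddx60, Zbp1, Xaf1 and Ifi27l2a, and their fold changes lay between 1.19 and 1.59. Over the 39 members the median log2 fold change was 0.15, and 36 (92.3%) were above 0. Over all genes tested the median was -0.01 and 48.4% were above 0. In 25 of the 39 members every CUMS library lay above every Control library, an arrangement found in 11.5% of all genes tested. Counts scaled to library size (CPM) of the 42 members summed to 5110, 5166 and 5163 in Control 1 to 3 and to 5559, 5626 and 5623 in CUMS 1 to 3, so this sum did not overlap between the groups. It amounted to 0.515% of the counts in Control and 0.56% in CUMS.

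**Figure D1:**
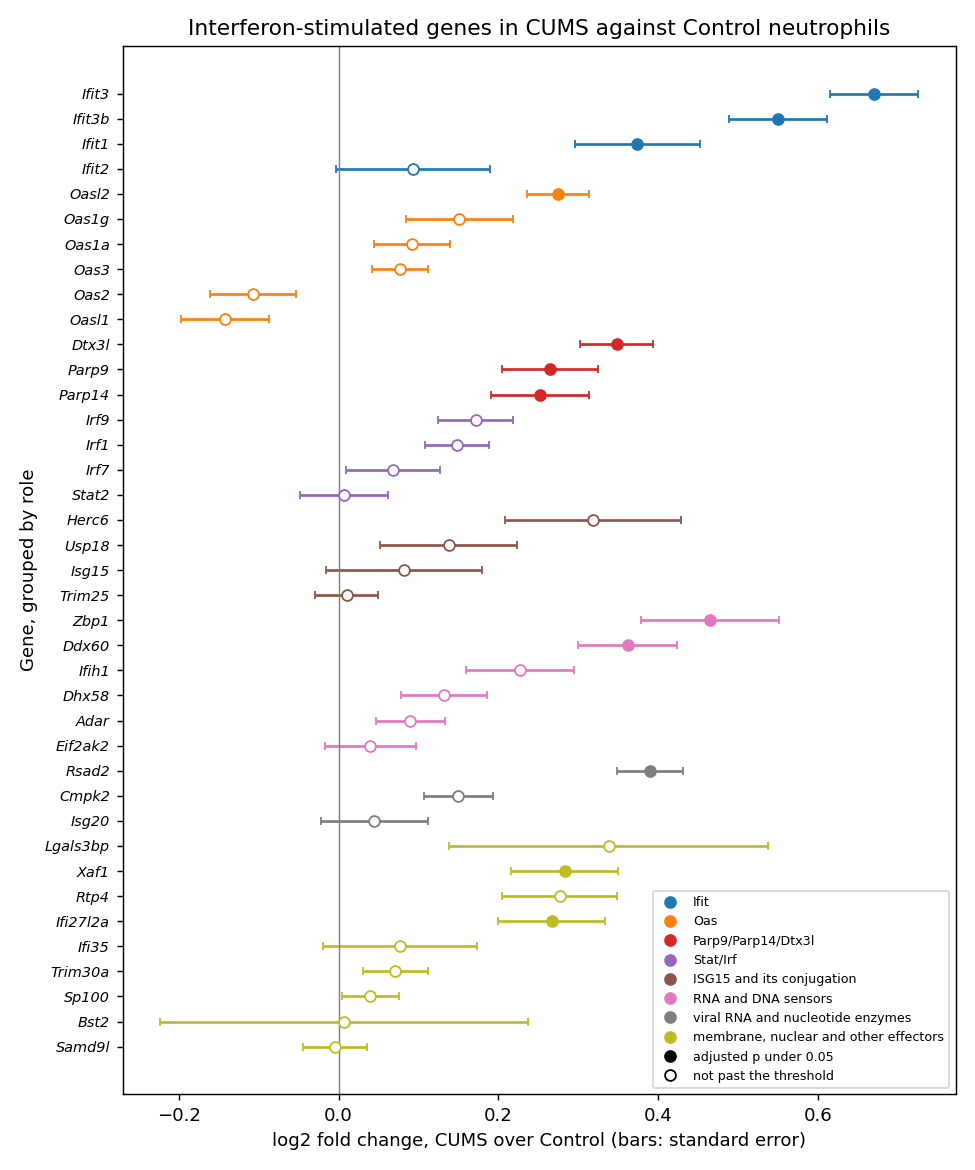
Log2 fold change of CUMS over Control (x axis) for each of the 39 tested members (y axis), coloured by role group; points are fitted values, bars the standard error, and filled points passed the adjusted threshold of 0.05. The highest filled points are Ifit3 (0.67), Ifit3b (0.55) and Zbp1 (0.46), all 3 of Parp9, Parp14 and Dtx3l are filled, and no filled point lies below 0.

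The Ifit group held the largest changes. Ifit proteins bind foreign RNA or each other and limit its translation. Ifit3 (chromosome 19, 34583531 to 34588731, plus strand, GRCm38) measured 34.0, 33.3 and 32.7 CPM in Control 1 to 3 and 52.6, 54.3 and 52.4 CPM in CUMS 1 to 3. All CUMS libraries were above all Control libraries, and the gap was many times the spread within either group. The log2 fold change was 0.67 ± 0.055 (SE, adjusted p = 5.1e-05). Its copy Ifit3b (34607970 to 34613401) measured 26.0, 25.7 and 26.0 CPM in Control and 38.3, 36.4 and 39.0 CPM in CUMS, again without overlap, and rose by 0.55 ± 0.061 (adjusted p = 4.6e-04). The coding sequences of the pair were 99.1% identical, and 18.5% of the 150-base windows of Ifit3 transcripts occurred unchanged in Ifit3b, so their reads could be exchanged and each single value is uncertain. Their sum does not depend on that exchange. It averaged 59.2 ± 0.71 CPM over the Control and 90.98 ± 0.321 CPM over the CUMS libraries (SD, n = 3 each).

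Ifit1 (34640871 to 34650009), which binds RNA whose cap lacks host methylation, measured 27.4, 28.8 and 28.7 CPM in Control and 41.0, 33.9 and 35.3 CPM in CUMS. CUMS 1 was the highest library, and the groups did not overlap. The rise was 0.37 ± 0.078 (adjusted p = 0.019). It did not pass without Control 1, Control 2, Control 3 or CUMS 3, and its adjusted p lay between 0.028 and 0.072 over the 6 fits that left out 1 library. Ifit2 (34550694 to 34576419), at the start of the same gene cluster, measured 11.8, 12.7 and 12.5 CPM in Control and 13.2, 12.3 and 14.1 CPM in CUMS. The groups overlapped, and its log2 fold change of 0.09 ± 0.096 did not pass (adjusted p = 0.72, 95% interval -0.12 to 0.30). The log2 ratio of Ifit3 to Ifit2 within a library was 1.52, 1.39 and 1.38 in Control and 2.00, 2.14 and 1.90 in CUMS, higher in every CUMS library by 0.58 on average. The log2 ratio of Ifit3 to Ifit1 was higher in CUMS by 0.30. For each of 5 such ratios the exact two-sided permutation p was 0.1, the smallest that 3 against 3 libraries allow, and the adjusted p was 0.1.

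**Figure D2:**
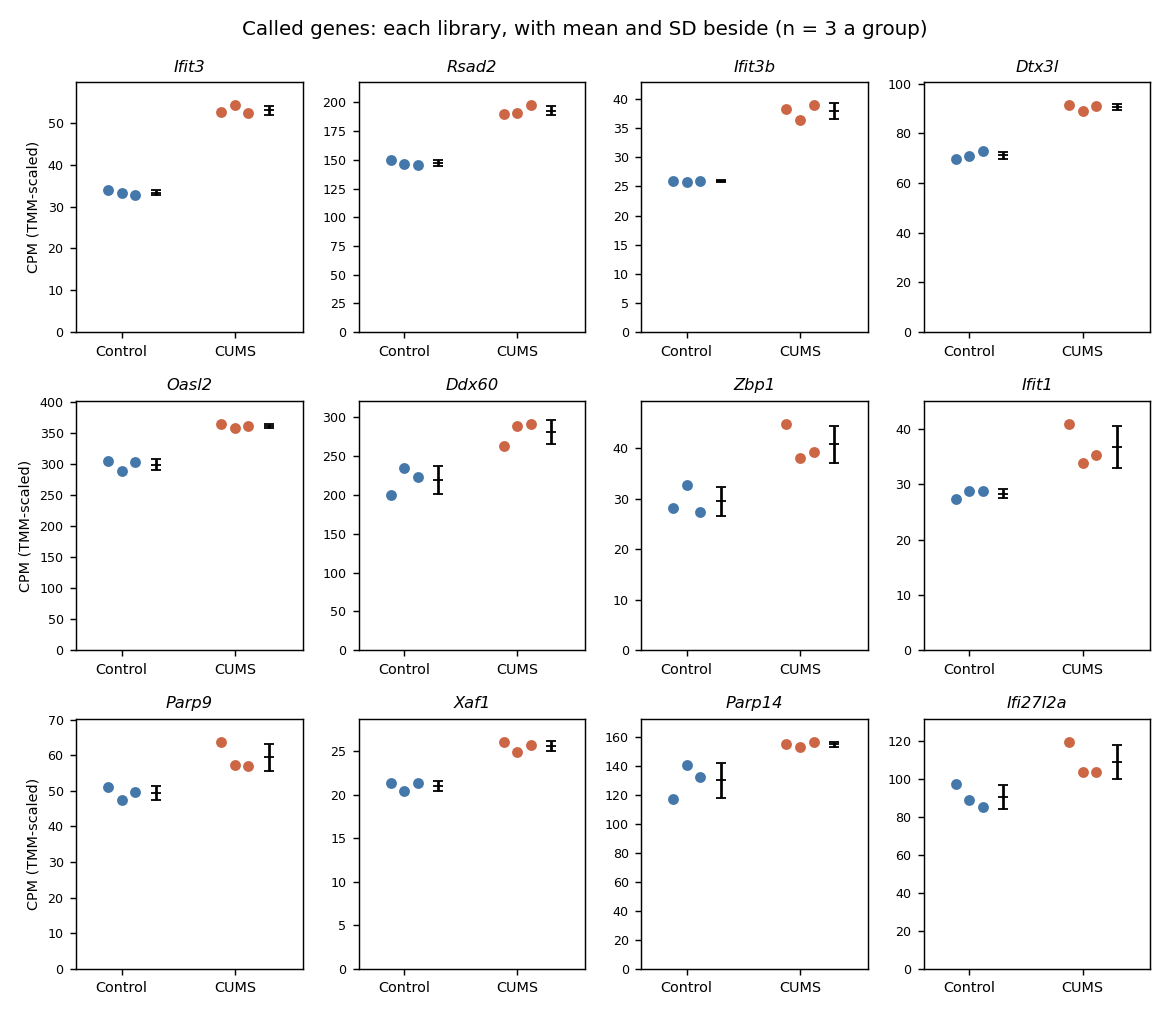
TMM-scaled CPM (y axis, from 0) of the 12 members that passed the test in Control and CUMS (x axis), ordered by adjusted p; coloured points are single libraries and the black marks beside them the mean with its SD (n = 3 a group). In all 12 panels every CUMS point lies above every Control point, with the widest relative gap in Ifit3 (33.4 against 53.1 CPM).

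Parp9, Parp14 and Dtx3l rose together. Parp9 and Dtx3l form a complex that joins ADP-ribosylation to ubiquitin transfer, and Parp14 is a large ADP-ribosyltransferase. The 3 genes lie side by side on chromosome 16 (35832874 to 35972605). Dtx3l, an E3 ubiquitin ligase, measured 69.8, 70.7 and 72.8 CPM in Control and 91.4, 89.1 and 91.01 CPM in CUMS, with no overlap, a rise of 0.35 ± 0.046 (adjusted p = 0.0015). Parp9 measured 51.1, 47.3 and 49.8 CPM in Control and 63.7, 57.4 and 57.0 CPM in CUMS, a rise of 0.27 ± 0.060 (adjusted p = 0.029). Parp14 measured 116.7, 140.5 and 132.2 CPM in Control and 154.7, 152.9 and 156.3 CPM in CUMS, a rise of 0.25 ± 0.061 (adjusted p = 0.039). Control 1 was the lowest library for Parp14, and the groups did not overlap for any of the 3. Dtx3l passed in every fit that left out 1 library, Parp14 passed without Control 2 alone (adjusted p 0.029 to 0.15 over the 6 fits), and Parp9 passed in none of them (0.055 to 0.12). Parp9 and Dtx3l share 458 exon bases on opposite strands, and without strand the reads from those bases cannot be told apart. Parp14 shares 110 exon bases with Gm49730 on the same strand.

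Within 1 Mb of this trio, 23 other genes were tested, of which 0 rose and 2 fell. Sema5b, a semaphorin gene that lies 291.7 kb before the first member, averaged 3.70 CPM over the Control libraries. All CUMS libraries list it at 0, which with the floor set at 3 read pairs a library makes it at least 30.7-fold lower. Slc15a2, a peptide transporter gene 917.3 kb after it, averaged 11.1 ± 1.59 CPM in Control and 1.163 ± 0.363 CPM in CUMS (log2 fold change -3.25 ± 0.21, adjusted p = 1.2e-05). Both fell by far more than the trio rose, and they lie on opposite sides of it. The relation of these 2 genes to the trio was not tested. Around the Ifit cluster 11 other genes were tested, of which 0 rose, while Acta2 (-0.43 ± 0.077) and Kif20b (-0.67 ± 0.14) fell. The other clusters had few called neighbours. Trafd1 rose (0.25 ± 0.050) among 29 around the Oas genes, Rnf144a (0.16 ± 0.036) among 3 around Rsad2 and Cmpk2, and the erythroid gene Slc4a1 (1.20 ± 0.15) among 60 around Dhx58 and Ifi35. Cit fell (-0.54 ± 0.13) among 46 around Oasl2 and Oasl1. Leaving out 1 library, Acta2 did not pass without CUMS 2 or CUMS 3 (adjusted p 0.0023 to 0.054), and Kif20b without Control 2, Control 3 or CUMS 2 (0.028 to 0.080). Trafd1 passed without Control 1 or CUMS 1 (0.013 to 0.079), Rnf144a without CUMS 1 (0.039 to 0.11) and Cit without CUMS 2 (0.049 to 0.16), and these did not pass without any other library.

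**Figure D3:**
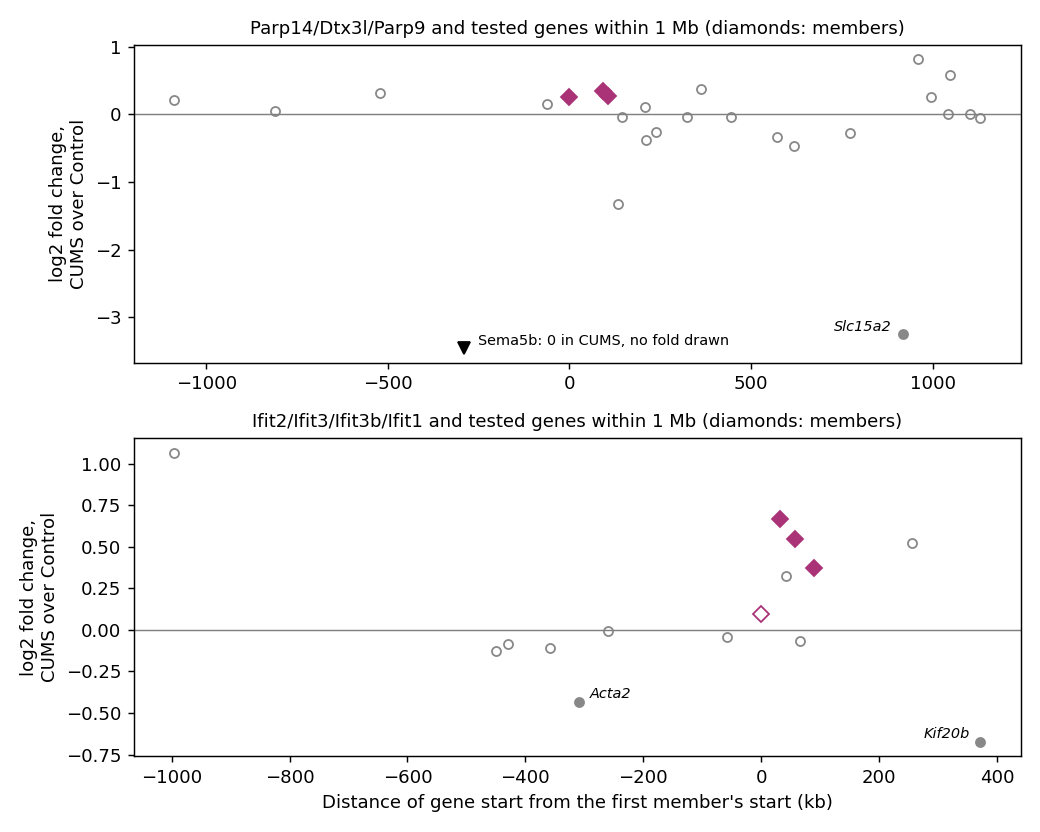
Log2 fold change of CUMS over Control (y axis) against the distance of a gene's start from the first member's start in kb (x axis) for the Parp14/Dtx3l/Parp9 cluster (top) and the Ifit cluster (bottom), with tested genes within 1 Mb; diamonds are members, circles other genes, and filled symbols passed the threshold. The black triangle is Sema5b, listed at 0 in CUMS and drawn without a fold; Slc15a2 lies at -3.25, while the trio lies between 0.25 and 0.35.

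The Oas group differed among its members. Oas enzymes sense double-stranded RNA and make a second messenger that leads to RNA cleavage. The Oas-like genes Oasl1 and Oasl2 encode relatives with a ubiquitin-like tail. Oasl2 (chromosome 5, 114896936 to 114912234) measured 305.8, 288.7 and 303.5 CPM in Control and 365.8, 359.2 and 361.6 CPM in CUMS, a rise of 0.28 ± 0.039 without overlap (adjusted p = 0.0023). Its neighbour Oasl1 (114923240 to 114937915), which has been described as a brake on Irf7 translation, measured 51.3, 49.1 and 48.0 CPM in Control and 46.1, 44.1 and 44.3 CPM in CUMS. Every CUMS library of Oasl1 was below every Control library, the reverse of Oasl2, but the log2 fold change of -0.14 ± 0.055 did not pass (adjusted p = 0.20). Within a library the log2 ratio of Oasl2 to Oasl1 was 2.58, 2.56 and 2.66 in Control and 2.99, 3.03 and 3.03 in CUMS, higher by 0.42 (exact permutation p = 0.1). As every CUMS library was higher for Oasl2 and lower for Oasl1, this ratio had to separate the groups. Its p adds nothing to the values of the single genes.

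None of the 4 Oas genes proper passed. Oas3, the highest of them per kilobase of exon, measured 594.3, 593.3 and 606.3 CPM in Control and 619.5, 636.7 and 636.2 CPM in CUMS (0.08 ± 0.035, adjusted p = 0.29). Oas2 had values of 310.9 to 322.4 CPM in Control and of 268.9 to 312.3 CPM in CUMS, where CUMS 1 was the lowest library (-0.11 ± 0.054, adjusted p = 0.35). Oas1a and Oas1g had log2 fold changes of 0.09 ± 0.047 and 0.15 ± 0.067, with every CUMS library above every Control library and adjusted p of 0.36 and 0.28. Their coding sequences were 96.7% identical, and 31.7% of the Oas1a windows of 150 bases occurred in Oas1g, so reads could be exchanged between them. The median log2 fold change of the 6 genes of the Oas group was 0.08, against 0.46 for the 4 Ifit genes.

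The Mx genes, whose products are GTPases that block viral nucleocapsids, were near 0 throughout. Mx1 had estimated counts of 0, 5 and 8 in Control and 24, 0 and 11 in CUMS, and Mx2 had 11, 0 and 0 in Control and 0, 8 and 0 in CUMS. As a read pair was estimated to be worth about 4 of these counts, each value rested on a handful of read pairs. Most of these values lay under the floor of 12, so no difference was detectable at this depth and no fold is given. Ifi44, a cytoplasmic interferon-induced protein, had at most 15 estimated counts in any library.

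None of the 4 transcription factors of the Stat/Irf group passed, although all 4 log2 fold changes were above 0 (median 0.11). Irf1, an early activator of interferon and interferon-stimulated genes, measured 164.7, 164.9 and 163.4 CPM in Control and 186.9, 180.4 and 179.1 CPM in CUMS. The groups did not overlap, and the log2 fold change was 0.15 ± 0.040 (adjusted p = 0.064). Irf9, the DNA-binding partner of Stat2, measured 111.9, 113.5 and 113.5 CPM in Control and 131.1, 130.8 and 120.1 CPM in CUMS (0.17 ± 0.047, adjusted p = 0.068). DESeq2 called both. Over the alternatives, adjusted p lay between 0.0057 and 0.16 for Irf1 and between 0.0087 and 0.22 for Irf9. Irf7, which amplifies interferon production, and Stat2 overlapped between the groups, with log2 fold changes of 0.07 ± 0.059 and 0.01 ± 0.055 (adjusted p = 0.64 and 0.97).

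None of the 4 members grouped as Isg15 and its conjugation passed. Isg15, the modifier itself, measured 22.7, 18.4 and 18.4 CPM in Control and 22.3, 21.1 and 19.6 CPM in CUMS. The groups overlapped, with the highest value in Control 1 (0.08 ± 0.098, adjusted p = 0.76). Trim25, an E3 ligase of the Rig-I pathway and the highest of the 4 per kilobase of exon, measured 235.5, 232.5 and 234.7 CPM in Control and 228.0, 241.5 and 238.2 CPM in CUMS (0.01 ± 0.040, adjusted p = 0.94). Usp18, which removes Isg15 and damps receptor signalling, had a log2 fold change of 0.14 ± 0.086 (adjusted p = 0.47). Herc6, the mouse ligase for Isg15, had the highest of the group at 0.32 ± 0.11 (adjusted p = 0.16), from 15.4 to 21.2 CPM in Control and 21.3 to 24.2 CPM in CUMS, and DESeq2 called it. Herc6 shares 1269 exon bases with the transcript Gm45193, so part of its reads is uncertain.

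Among the 6 sensors of RNA and DNA, Ddx60 and Zbp1 rose. Ddx60, a helicase that assists the Rig-I-like receptors, measured 199.1, 234.3 and 222.2 CPM in Control and 262.6, 288.2 and 291.5 CPM in CUMS, a rise of 0.36 ± 0.062 (adjusted p = 0.0067). The lowest value in each group came from its replicate 1, and the groups did not overlap. Zbp1 (chromosome 2, 173206612 to 173218923), a sensor of Z-form nucleic acid that triggers cell death, measured 28.3, 32.8 and 27.5 CPM in Control and 45.0, 38.1 and 39.4 CPM in CUMS. It rose by 0.46 ± 0.086 (adjusted p = 0.010) and did not pass without Control 3 (adjusted p = 0.060, range 0.012 to 0.060 over the 6 fits). Ifih1, the sensor of long double-stranded RNA, did not overlap between the groups but did not pass (0.23 ± 0.068, adjusted p = 0.097). The same held for Dhx58, a regulator of Rig-I-like receptors (0.13 ± 0.054, adjusted p = 0.23), and Adar, the RNA-editing enzyme (0.09 ± 0.043, adjusted p = 0.32). Adar shares 1365 exon bases with Chrnb2 on the opposite strand. Eif2ak2, the kinase that stops translation on binding double-stranded RNA, overlapped between the groups (0.04 ± 0.057, adjusted p = 0.81).

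Rsad2 and Cmpk2 are neighbours on chromosome 12 (26442746 to 26479837) and act in one path, in which Rsad2 (viperin) turns a nucleotide phosphorylated by Cmpk2 into a chain terminator of viral polymerases. Rsad2 measured 150.2, 146.1 and 145.4 CPM in Control and 190.4, 190.7 and 197.8 CPM in CUMS, a rise of 0.39 ± 0.041 (adjusted p = 3.2e-04). Cmpk2 measured 159.6, 160.3 and 157.4 CPM in Control and 169.3, 181.5 and 178.7 CPM in CUMS. Neither gene overlapped between the groups, but the 0.15 ± 0.043 of Cmpk2 did not pass (adjusted p = 0.079, between 0.0096 and 0.27 over the alternatives). The log2 ratio of Rsad2 to Cmpk2 went from below 0 in all 3 Control libraries (-0.09, -0.13 and -0.11) to above 0 in all 3 CUMS libraries (0.17, 0.07 and 0.15; exact permutation p = 0.1). Isg20, an RNA exonuclease, overlapped between the groups (0.04 ± 0.067, adjusted p = 0.82).

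Of the 10 other effectors, 9 were tested and 2 rose. Xaf1, a pro-apoptotic partner of XIAP, measured 21.4, 20.4 and 21.3 CPM in Control and 26.1, 25.0 and 25.7 CPM in CUMS, a rise of 0.28 ± 0.067 (adjusted p = 0.035). Ifi27l2a, a small membrane protein, measured 97.4, 88.8 and 85.2 CPM in Control and 119.3, 103.6 and 103.7 CPM in CUMS, a rise of 0.27 ± 0.067 (adjusted p = 0.048). Neither overlapped between the groups. Xaf1 passed in none of the fits that left out 1 library (adjusted p 0.078 to 0.14), and Ifi27l2a passed without Control 1 alone (0.031 to 0.17). Rtp4, a chaperone of membrane receptors, lay just outside the threshold (0.28 ± 0.072, adjusted p = 0.054), with 102.6 to 127.2 CPM in Control and 130.8 to 144.2 CPM in CUMS. Rtp4 was called in 7 of its 13 alternatives (adjusted p 0.0011 to 0.18). It shares 296 exon bases with the transcript Gm45338 on the same strand, so part of its reads is uncertain.

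The remaining effectors did not pass. Samd9l, which arrests translation, measured 700.2, 752.2 and 742.8 CPM in Control and 708.2, 737.7 and 743.4 CPM in CUMS. The groups overlapped, with a log2 fold change of -0.00 ± 0.040 (95% interval -0.09 to 0.08). Sp100, a nuclear body protein (0.04 ± 0.036), and Trim30a, a ubiquitin ligase (0.07 ± 0.041), were higher in every CUMS library than in every Control library and had adjusted p of 0.66 and 0.43. Bst2, the tether of budding virus, Lgals3bp, a secreted glycoprotein, and Ifi35 overlapped between the groups (0.01 ± 0.23, 0.34 ± 0.20 and 0.08 ± 0.096). Bst2 and Lgals3bp averaged 3.12 and 3.16 CPM in Control, and their errors were the largest of the 39. Their adjusted p were 0.99 and 0.43, and that of Ifi35 was 0.77.

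**Figure D4:**
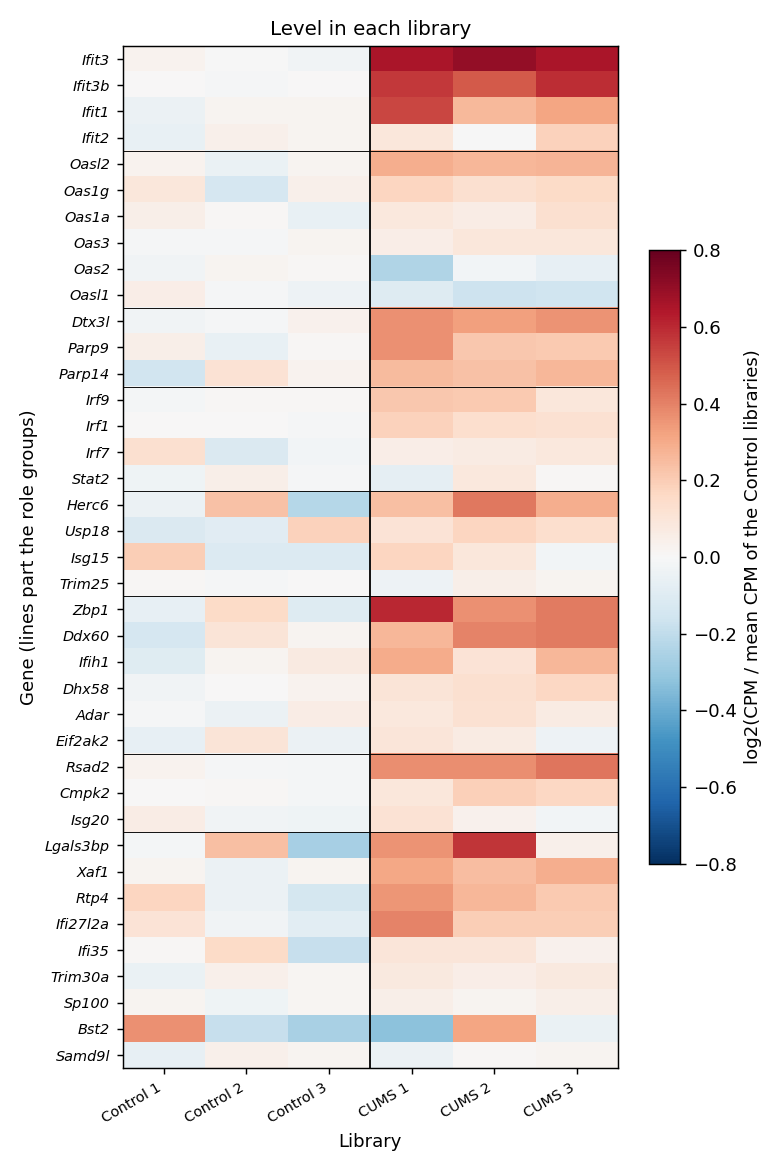
Level of the 39 tested members (y axis, lines part the role groups) in each of the 6 libraries (x axis), as log2 of CPM over the mean CPM of the Control libraries. Red is above that mean and blue below; the rows of Ifit3, Ifit3b, Oasl2, Dtx3l and Rsad2 are red in all 3 CUMS libraries, whereas Stat2, Trim25 and Samd9l stay pale and Oasl1 is blue in all 3.

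Levels were compared between genes per kilobase of exon. In Control, Ifi27l2a stood first at 195.0 ± 13.5 CPM per kb, followed by Samd9l at 135.0 ± 5.10 and Oas3 at 84.6 ± 1.03. Oas2 and Sp100 came next, at 71.4 ± 1.35 and 66.1 ± 1.34. Rtp4 (53.1 ± 5.95), Trim30a (53.0 ± 1.79) and Oas1a (52.2 ± 1.89) did not differ beyond their spread. Among the members that rose, Oasl2 (47.0 ± 1.46) and Rsad2 (34.0 ± 0.590) were at higher levels than Ifit3 (19.1 ± 0.382), Parp14 (13.9 ± 1.3), Dtx3l (12.4 ± 0.269), Ifit1 (10.7 ± 0.293) and Xaf1 (4.48 ± 0.115). The members that rose were therefore spread over the range of levels, from first place to below Ifih1 (5.18 ± 0.308). Lgals3bp was the lowest tested member at 1.11 ± 0.195.

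The genes that lead into the programme were taken from lists of the pathway. Of 21 interferon genes in the tables, 0 passed the filter on low values, and 16 were listed at 0 in all 6 libraries, Ifnb1 among them. The highest value was 14 estimated counts, for Ifnk in CUMS 3. Among the genes of interferon receptors and their proximal kinases, Jak1 rose (from 673.2 ± 25.9 to 756.9 ± 5.40 CPM, 0.17 ± 0.038, adjusted p = 0.028). The receptor chains Ifnar1 (0.05 ± 0.045) and Ifnar2 (-0.12 ± 0.058) did not pass (adjusted p = 0.70 and 0.31). Of 25 tested genes that sense nucleic acid or induce interferon, 1 rose and 0 fell. It was Irf2, which competes with Irf1 for its sites and also stands on the list of brakes (0.25 ± 0.048, adjusted p = 0.013). Of the 15 brakes on interferon signalling, Irf2 rose and Socs3, a feedback inhibitor of cytokine receptors, fell from 114.0 ± 6.35 to 78.6 ± 1.73 CPM (-0.54 ± 0.052, adjusted p = 1.7e-04). Of 10 tested genes of Isg15 conjugation and the oligoadenylate path, 1 rose. It was Uba7, the activating enzyme of Isg15 (0.17 ± 0.041, adjusted p = 0.039). Socs3 passed without any 1 library. Irf2 did not pass without Control 2, Control 3 or CUMS 3 (adjusted p 0.017 to 0.082 over the 6 fits), Jak1 passed without Control 3 or CUMS 1 alone (0.032 to 0.13), and Uba7 without CUMS 1 alone (0.034 to 0.16).

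Markers of cell types were read beside these results, since in bulk RNA fewer cells of a type and less RNA per cell cannot be told apart. All 10 neutrophil markers were tested, and their summed CPM ranged from 114800 to 126000 in Control and from 95240 to 121400 in CUMS. S100a9, Ltf, Ngp and S100a8 made up most of this sum. Camp and Ltf fell, the other markers did not pass, and the median log2 fold change of the list was -0.09. Csf3r (0.11 ± 0.035, every CUMS library above every Control library) and Retnlg (0.16 ± 0.086) were above 0. S100a8 (-0.35 ± 0.13), S100a9 (-0.24 ± 0.11) and Ngp (-0.18 ± 0.079) were below it. Ly6g, Cxcr2 and Mmp8 had -0.06, -0.03 and -0.05. Erythroid markers moved with the group: 8 of 13 rose, and their sum ranged from 1305 to 1875 CPM in Control and from 2522 to 3007 CPM in CUMS. Of 10 B cell markers Ighm rose (140.9 ± 3.45 against 175.0 ± 3.16 CPM) and made up most of their sum (165.8 to 169.4 against 204.7 to 211.2 CPM). The median log2 fold change of this list was 0.35. Of 13 monocyte and macrophage markers Csf1r and F13a1 rose, and the others did not pass. The sum of the list overlapped between the groups (1583 to 1648 against 1603 to 1731 CPM), and its median log2 fold change was 0.13. Vcam1 (-0.55 ± 0.22), Ly6c2 (-0.13 ± 0.061), C1qa, Cd68 and Adgre1 were below 0. Mpeg1, Ccr2, Ms4a4c, Ms4a6c, Cx3cr1 and C1qb were above it. Of 9 eosinophil markers 2 rose, and the median log2 fold change was 1.44. Prg2 averaged 0.885 ± 0.114 CPM in Control and 4.82 ± 0.708 CPM in CUMS (2.45 ± 0.21). Epx averaged 0.119 ± 0.110 and 1.49 ± 0.148 CPM in these groups (adjusted p = 0.016). Their sum (44.9 to 51.9 against 51.6 to 60.3 CPM) was mostly Ear2 and Siglecf, which did not pass (0.03 ± 0.14 and 0.07 ± 0.078). For plasmacytoid dendritic cells, a major source of interferon, 0 of 6 tested markers passed, and 3 did not reach the filter, among them Klk1 at 0 in all libraries. Runx2 made up most of their sum (84.9 ± 4.77 of 88.9 to 102.7 CPM in Control, 91.3 ± 6.20 of 93.6 to 106.6 CPM in CUMS), so the sum says little of these cells. Siglech averaged 0.865 ± 0.566 CPM in Control and 0.891 ± 0.273 CPM in CUMS. For T and NK cells 0 of 5 tested passed (4.58 to 6.31 against 4.39 to 6.07 CPM). Of 6 tested plasma cell markers Xbp1 fell (from 80.7 to 65.9 CPM, -0.29 ± 0.049) and made up most of the sum (82.9 to 85.8 against 67.7 to 73.6 CPM). The median of that list was 0.18, and the plasma cell genes Jchain (0.30 ± 0.17) and Mzb1 (1.75 ± 0.91) did not pass. Of 8 basophil and mast cell markers Hdc fell (1051 ± 9.95 against 826.4 ± 16.3 CPM) and was nearly all of the sum (1083 to 1097 against 851.7 to 879.0 CPM). The median of that list was -0.38, and Kit had 0.08 ± 0.076 and did not pass. Gata2 (-1.52 ± 0.39), Ms4a2 (-1.58 ± 0.44) and Prss34 (-0.41 ± 0.17) were lower in every CUMS library than in every Control library. They did not pass either (adjusted p = 0.053, 0.068 and 0.23), and Gata2 and Ms4a2 averaged 1.74 and 1.32 CPM in Control. The part of these cells in the changes of the interferon-stimulated genes was not tested.

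The libraries held 78845457 to 109757558 estimated counts. If 1 read pair is worth 4 of these, as inferred from the values, that is 19711364 to 27439389 read pairs. CUMS 1 was the highest of its group in 7 of the 12 members that rose, CUMS 2 in 1 and CUMS 3 in 4. Over the 39 tested members these counts were 17, 12 and 10, and over all genes tested CUMS 1 was the highest in 35.0%. Ifit3, Ifit3b, Rsad2, Dtx3l, Oasl2 and Ddx60 passed in every alternative fit in which they stood, those that left out any 1 library included. Without 1 library, the number of members that passed was between 6 (without Control 3) and 9, and without CUMS 3 it was 7.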

How the data were processed

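RNA from sorted bone marrow neutrophils of Control and CUMS mice was made into TruSeq libraries, 3 a group, from 1 µg of total RNA and read as 150 bp pairs, per the labels' protocols. Per the submitters' processing notes, which give no roles, the authors' tools were HISAT2 2.1 and featureCounts 1.6.4 beside bcl2fastq 2.19 and cutadapt 1.16.5, and DESeq2 2.11.40.6, on mm10. The authors deposited their values as 1 whole number per gene and library, treated here as estimated counts, unscaled. Values of 4, 8, 12 and 16 were in excess over adjacent values (1.89, 1.66, 1.41 and 1.38 times), which put 1 read pair at about 4. The floor for a gene at 0 was 3 read pairs, or 12 estimated counts, per library; it covers counting error only, as PCR copies were not told apart by molecular identifiers.

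The whole numbers entered edgeR 4.0.16 (R 4.3.3) as deposited: filterByExpr at its defaults, TMM scaling, the quasi-likelihood F test on group alone, and Benjamini-Hochberg adjustment over all 15777 genes at 0.05. CPM are TMM-scaled with SD over 3 libraries, and log2 fold changes carry standard errors derived from the F statistic. Ratios within a library were compared by exact two-sided permutation. Where rows shared a symbol, the one with the highest total was used. Positions, strands, exon lengths and overlaps are from GENCODE M21 on GRCm38 matched by symbol, and promoters from RefSeq on GRCm38.p6.

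The members and all gene lists were chosen with earlier results of these data known. Every member is accounted for; those past the threshold, and in each group the one with the highest mean CPM, are given for every library. Of the pathway lists Ifnar1 and Ifnar2 are always given, and up to 4 genes past the threshold, of which not all are reported here; of genes within 1 Mb of a cluster, those past the threshold. Other genes were named after their values were seen. Alternatives were RLE scaling, no filter, DESeq2 1.42.0, voom with quality weights (limma 3.58.1), a replicate block, division by 4, summing rows of one symbol, leaving out each library and, chosen after seeing the data, summing Ifit3 with Ifit3b and Oas1a with Oas1g.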

Additional observations from a re-analysis of the deposited data

How the results depend on the processing

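The 12 members that rose were all called under RLE scaling (13 members called), no filter (13), DESeq2 (18), voom with quality weights (15), division by 4 (14) and summed rows of one symbol (12). With Ifit3 and Ifit3b summed, and Oas1a and Oas1g summed, 11 were called, the pair counting once, and the Ifit median was 0.37 against 0.46. Under the replicate block 13 were called and Rtp4 was gained. Same-numbered libraries deviated with correlations of 0.01, 0.00 and -0.03, so the numbers were not taken as pairs. Over all genes, 372 rose and 338 fell, against 678 and 561 by DESeq2.

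Leaving out 1 library gave 6 to 9 members, 145 to 353 genes higher and 160 to 344 lower. The medians then ranged from 0.094 to 0.142 for Stat/Irf, 0.066 to 0.139 for Isg15 and its conjugation (0.127 under voom), 0.253 to 0.317 for Parp9/Parp14/Dtx3l, 0.132 to 0.180 for the viral RNA and nucleotide enzymes and 0.081 to 0.228 for the other effectors. The cause was not tested. Log2 fold changes near 0 changed sign. Samd9l was 0.001 under RLE scaling, no filter and DESeq2. Leaving out 1 library, it lay between -0.035 and 0.020, Stat2 between -0.029 and 0.047, Trim25 between -0.004 and 0.035, Bst2 between -0.178 and 0.228 and Ifi35 between -0.003 and 0.165. Among the single genes followed, other values kept their sign. Counting each gene in each alternative fit separately, 615 values kept sign and call, 60 lost a call, 16 gained one and 13 changed sign. Mx1, Mx2 and Ifi44 were limited by depth.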
